A study of Mus musculus with 4 samples.

Results

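The genes described here carry glucose through glycolysis to lactate, run the reverse path of gluconeogenesis, and set how pyruvate is used. They were 38 genes chosen by their function: glucose and lactate carriers, the enzymes from hexokinase to lactate dehydrogenase, the enzymes particular to gluconeogenesis, and the pyruvate dehydrogenase complex with its kinases. Of the 38, 37 had a probe on the array, among 15615 genes with a symbol in all, and Aldoc was the exception. The members were found by their current or an older symbol, so that Gapd stands for Gapdh, Pkm2 for Pkm, Aldo1 for Aldoa, Ldh1 and Ldh2 for Ldha and Ldhb, Tpi for Tpi1, 1810010O14Rik for Pck2 and D530020C15Rik for Pdk1. RNA came from 4 cultured mouse melanoma lines of C57Bl6 background, with 1 array per line. B16 is the parental line, whose B16F1 cells were placed in the back skin of C57BL6 mice by intradermal injection. B16-RI was grown out of lymph node metastases of those tumours, and was itself injected for a second round that gave B16-RII, from lymph node metastases, and B16-RIIL, from lung metastases. All lines were measured after growth in dishes with 20% fetal bovine serum, none carried an engineered allele or received a drug according to the labels, and RNA of different passages of a line was pooled, so the values describe cultures and not tumours. A metastasis-derived line stands for the cells that grew out, and how many animals contributed to each line is not given in the labels.

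Glycolysis splits glucose into pyruvate in the cytosol, and dividing cells and tumour cells often send much of that pyruvate to lactate even where oxygen is present. Phosphofructokinase commits the sugar to breakdown, and fructose-1,6-bisphosphatase removes the same phosphate in gluconeogenesis, so the pair stand at one step that runs in opposite directions. Pyruvate dehydrogenase turns pyruvate into acetyl-CoA for the mitochondria, and pyruvate dehydrogenase kinases switch it off.

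Each value below is a level, the log2 of the deposited normalized signal minus the median of all probes of the same scaling set that were detected on all 4 arrays, so that 0 is the median detected probe of that array. A difference is the level of 1 line minus that of another, in log2 units. A probe was detected when its signal-to-noise ratio (S/N) was at least 3 and its flag at most 5000. A gene was called above or below from a difference of 1 log2 unit, which is 2-fold, provided that the brighter array detected it. Where the dimmer array did not detect the probe, the size is a ratio to the higher of that probe's signal and the lowest detected signal of the array. Such a ratio rests on a signal below the detection limit and sets no lower bound on the true difference. A gene was represented by the brightest of its probes unless another is named, and no statement on which gene was more abundant was drawn from levels. With 1 array per line there was no spread between replicates, so no test was run, and the 3 differences from B16 share the B16 array.

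Between 13872 and 14855 of the 33012 probes were detected on an array, and the median raw signal was 435, 451, 619 and 554 on B16, B16-RI, B16-RII and B16-RIIL. The deposited values stood above those of B16 by a median of 0.40, 0.43 and 0.52 log2 units in the first probe set and by 0.00, 0.43 and 0.01 in the second, which is why each set was centred on its own median. Of 8 melanocyte markers 6 had a probe, and all 6 (Dct, Tyrp1, Tyr, Si, Mitf and Mc1r) were detected on every array. Of 26 markers of muscle, hepatocytes, fibroblasts, endothelium, macrophages and lung epithelium, 6, 3, 4 and 6 were detected by any of their probes on B16, B16-RI, B16-RII and B16-RIIL. In bulk RNA, fewer cells of a type and less RNA per cell cannot be told apart.

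Over the whole pathway most members stayed within 2-fold of B16, and the exceptions were spread over the pathway. Of the 37 genes, 27 were detected on all 4 arrays, 4 on some (Slc2a3, Pgam2, Slc16a3 and Fbp2) and 6 on none by their brightest probe (Pfkfb3, Eno2, Fbp1, G6pc, Pdk2 and Pdk4). In B16-RI, 1 member was above B16, Slc2a3, where 3.64% of all genes were above, and 3 were below, Pgam2, Slc16a3 and Pck2, where 5.1% of all genes were below. In B16-RII, 1 was above, Fbp2, beside 3.53% of all genes, and 1 was below, Pgam2, beside 5.03%. In B16-RIIL, 1 was above, again Fbp2, beside 4.25%, and 5 were below, Pfkp, Tpi1, Pgam2, Pklr and Slc16a3, beside 4.57%. The members above thus made up 2.70% of the 37 in each line, under the share of all genes. The members below made up 8.11%, 2.70% and 13.5%, of which the first and last lie above the share of all genes and rest on 3 and 5 genes. In all 8 member genes (21.6%) were called in at least 1 passaged line and 29 in none, beside 16.3% of all genes called in at least 1.

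**Figure D1:**
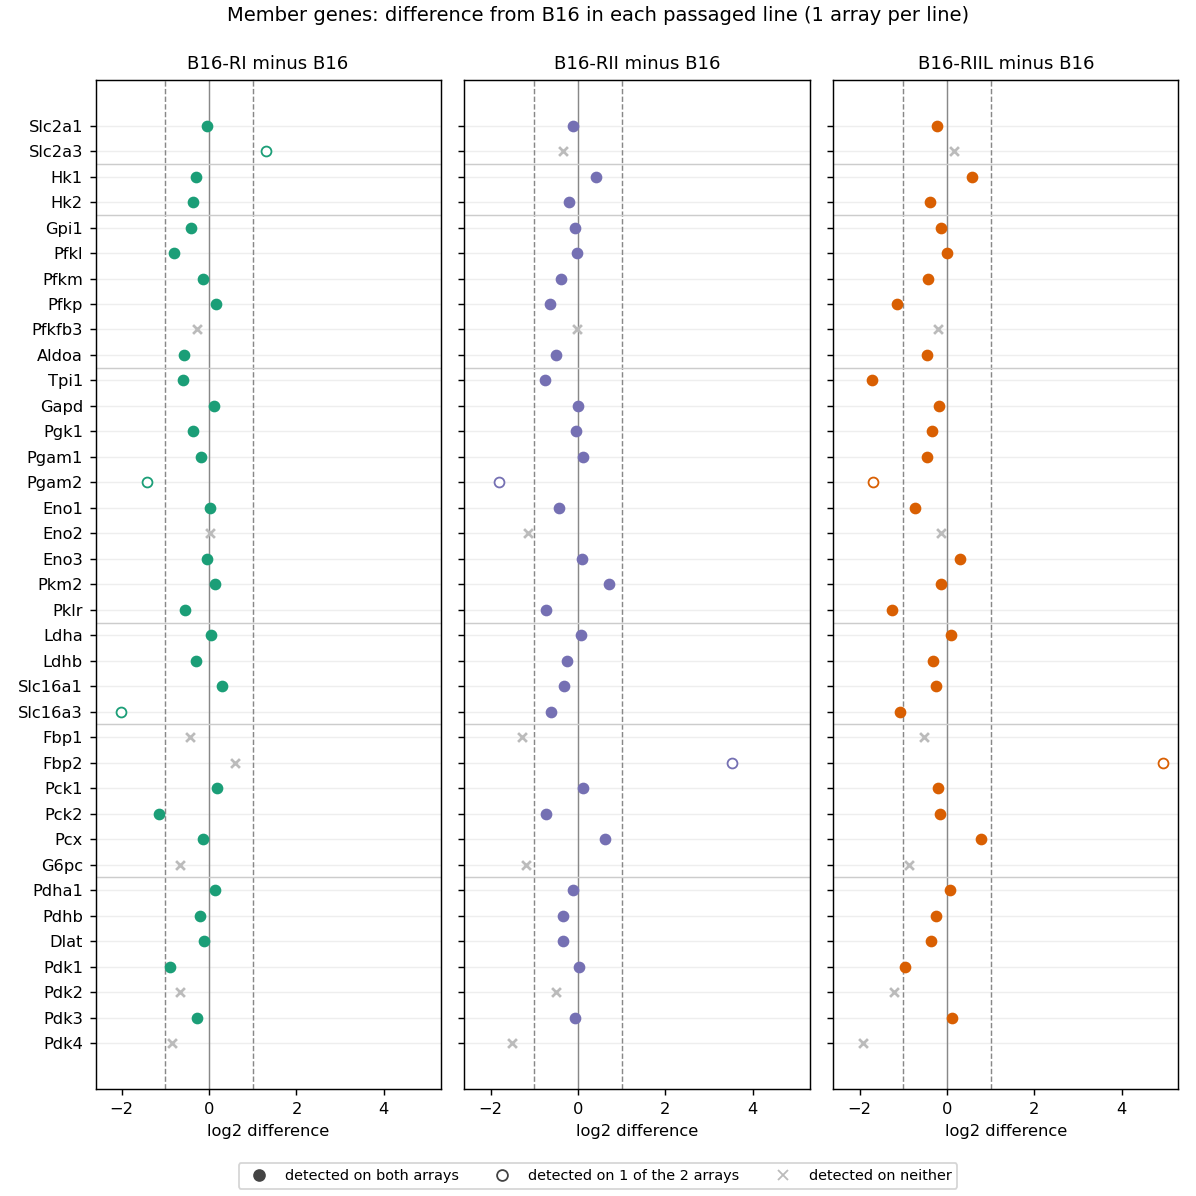
Difference in log2 signal from B16 on the array of each passaged line (x axis) for the 37 member genes with a probe (rows, ordered along the pathway, brightest probe), with dashed lines at 1 log2 unit. Fbp2 stands at 3.52 in B16-RII and 4.94 in B16-RIIL, and most other points lie between the dashed lines.

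Glucose enters through the Slc2a carriers. Slc2a1, the main basal glucose carrier of many cells, had levels of -1.38, -1.43, -1.49 and -1.60 on B16, B16-RI, B16-RII and B16-RIIL. Its 4 levels lay close together, and its differences from B16, -0.05, -0.12 and -0.22, turned positive under the other 3 scalings, where they lay between 0.11 and 0.34. Slc2a3, a carrier with high affinity for glucose, had levels of -3.81, -2.51, -4.14 and -3.65, with S/N of 2.09, 5.36, 0.84 and 1.57. It was detected on B16-RI alone, 2.47-fold above its undetected signal on B16. Hexokinases trap glucose in the cell by phosphorylation. Hk2, the inducible isoform, had levels of 1.59, 1.23, 1.38 and 1.21, and Hk1, the widely expressed isoform, had levels of -0.94, -1.23, -0.52 and -0.36. Neither hexokinase reached the 2-fold limit in any line. Hk1 was above B16 by 0.42 in B16-RII and 0.58 in B16-RIIL, and with the deposited values its difference in B16-RIIL was 1.09, past the limit. The differences of Hk2 were -0.36, -0.20 and -0.38 and turned positive in each line under at least 1 other scaling.

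In the upper part of glycolysis 6 members had a probe and 5 were detected throughout. Pfkp, the platelet isoform of phosphofructokinase, had levels of 1.23, 1.38, 0.59 and 0.09 on the arrays of B16, B16-RI, B16-RII and B16-RIIL. It was lowest in the lung-derived line, 2.21-fold below B16, and under the other scalings that difference lay between -1.46 and -1.14. The liver isoform Pfkl had levels of 3.51, 2.70, 3.49 and 3.51. It was lower in B16-RI than in the other lines, by 0.81 against B16, and this difference was -1.11 under the scaling that moved it farthest. The muscle isoform Pfkm ranged from -2.22 to -1.79 over the 4 arrays. Pfkl thus had its lowest level in B16-RI and Pfkp in B16-RIIL. Gpi1, which interconverts glucose and fructose phosphates, had 2 probes with differences from B16 that agreed within 0.12. Aldoa, the aldolase that splits the sugar into smaller phosphates, had levels of 3.99, 3.41, 3.47 and 3.53. It was below B16 by 0.58, 0.52 and 0.46, short of the limit, and remained below in every line under each scaling, with the smallest difference at -0.09 in B16-RII. The second Aldoa probe, with levels of -1.32, -1.80, -2.22 and -1.75, was also lower in each passaged line than in B16. Pfkfb3, which makes an activator of phosphofructokinase, was not detected, with S/N of at most 1.47.

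In the lower part of glycolysis Gapd and Pgk1 stayed within 2-fold of B16 in every line. Gapd, which encodes glyceraldehyde-3-phosphate dehydrogenase, had levels of 7.45, 7.57, 7.44 and 7.26. Pgk1, the first enzyme of the path to yield ATP, had levels of 6.05, 5.68, 6.0 and 5.71 at its brighter probe and 5.0, 4.56, 4.75 and 4.36 at the other. For both genes all levels of a probe lay within 1 log2 unit, and the sign of a difference of Gapd in B16-RII and B16-RIIL, and of the brighter Pgk1 probe in each line, turned with the scaling. The other Pgk1 probe was below B16 under each scaling in B16-RI, by 0.44 on the main scale, and in B16-RIIL, by 0.64, while in B16-RII its sign turned. Tpi1, triosephosphate isomerase, gave different pictures at its 2 probes. One had levels of -0.26, -0.85, -1.03 and -1.96, which placed B16-RIIL 3.26-fold below B16, with a difference between -1.71 and -1.19 over the scalings. The other had levels of -2.84, -2.77, -2.85 and -2.82, so that the probes disagreed by 1.72 log2 units in B16-RIIL and by 0.65 and 0.76 in B16-RI and B16-RII. Which of the probes follows the Tpi1 transcript was not tested. Cross-hybridization with near-identical copies, which Gapd, Eno1, Tpi1, Pgk1 and Ldha have in the mouse genome, was not tested either.

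Pgam2, the muscle isoform of phosphoglycerate mutase, had levels of -3.68, -5.10, -5.49 and -5.38, with S/N of 3.5, -0.51, -0.31 and 1.23. It was detected on B16 alone, close to the limit of detection. The undetected signals on B16-RI, B16-RII and B16-RIIL were 2.68-fold, 3.51-fold and 3.25-fold lower, ratios that set no minimum for the difference. The widely expressed isoform Pgam1 had levels of 4.88, 4.69, 4.99 and 4.42. Of the enolases, Eno3 ranged from 0.75 to 1.09, and Eno1 had levels of -1.14, -1.11, -1.58 and -1.88 at the probe that was detected. Eno2, the neuronal enolase, was not detected at its brighter probe. Its other probe was detected on B16 alone with an S/N of 3.63, close to the limit, and lay 5.11-fold, 3.16-fold and 3.82-fold above the undetected signals of the passaged lines. Pyruvate kinase ends the path. Pkm2, the gene of the form used by most dividing cells, had levels of -1.98, -1.84, -1.27 and -2.11. It was highest in B16-RII, by 0.72 over B16, and by 1.14 with the deposited values. Pklr, the pyruvate kinase gene of liver and red cells, had levels of -0.77, -1.32, -1.51 and -2.03. All 4 arrays detected Pklr, with B16 highest and B16-RIIL lowest, 2.40-fold below B16, and its difference in B16-RIIL lay between -1.51 and -1.26 over the scalings.

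**Figure D2:**
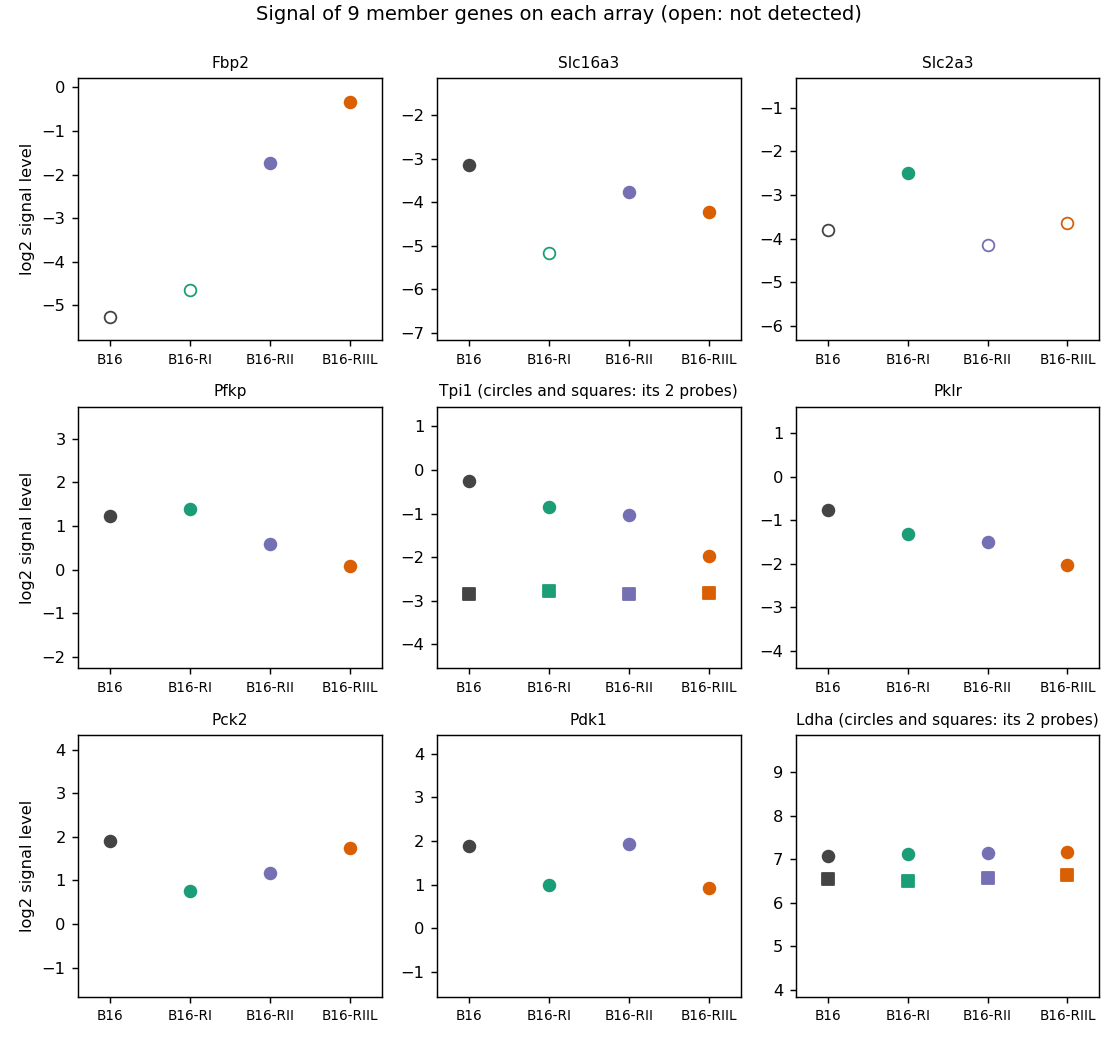
Log2 signal level (y axis, 0 is the median detected probe of the array and probe set, panels span different ranges) of 9 member genes on the 4 arrays, 1 point per array, open where not detected. Fbp2 is detected on B16-RII and B16-RIIL, Slc2a3 on B16-RI, and the 2 Tpi1 probes (circles and squares) differ by their spread over the lines.

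Lactate is made by lactate dehydrogenase and leaves through monocarboxylate carriers. Ldha, the subunit that favours lactate formation, had levels of 7.08, 7.13, 7.13 and 7.18 at one probe and 6.54, 6.51, 6.58 and 6.65 at the other. At either probe the levels on the 4 arrays lay within 0.5 log2 units. Ldhb, the subunit of oxidative tissues, had levels of 2.74, 2.44, 2.49 and 2.42. It was lower than B16 by 0.30, 0.25 and 0.32, and each of these turned positive with the deposited values. Slc16a3, a lactate exporter of glycolytic cells, had levels of -3.15, -5.17, -3.76 and -4.23, with S/N of 4.47, 0.25, 8.41 and 3.0. It was not detected on B16-RI, where its signal was 4.07-fold below B16. On B16-RIIL its difference of -1.08 was -0.56 with the deposited values and with quantile normalization and -0.76 with 75th percentile scaling, short of the limit. Slc16a1, the widely expressed lactate carrier, had levels of -0.40, -0.11, -0.72 and -0.66. Slc16a3 and Ldha are textbook targets of hypoxia-inducible factors, whose binding site has the core ACGTG, and their promoters are shown because one gene varied most among the lactate genes and the other least. The windows of 250 bases before the annotated start come from RefSeq on GRCm38.p6, at chr11:120948817-120949066 (+ strand) for Slc16a3 and chr7:46845554-46845803 (+ strand) for the first of 2 listed Ldha starts, and capitals mark ACGTG on either strand together with the E-box CACGTG that contains it.
Slc16a3: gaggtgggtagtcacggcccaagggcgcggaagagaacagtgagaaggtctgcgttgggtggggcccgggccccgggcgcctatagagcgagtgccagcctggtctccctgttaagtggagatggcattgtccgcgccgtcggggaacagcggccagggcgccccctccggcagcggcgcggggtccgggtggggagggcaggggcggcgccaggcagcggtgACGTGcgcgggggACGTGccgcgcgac
Ldha: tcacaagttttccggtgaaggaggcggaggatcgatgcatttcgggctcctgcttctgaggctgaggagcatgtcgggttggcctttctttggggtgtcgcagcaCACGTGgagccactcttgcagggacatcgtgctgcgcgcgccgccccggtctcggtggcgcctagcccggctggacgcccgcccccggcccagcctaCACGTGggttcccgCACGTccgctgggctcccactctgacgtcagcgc
The Slc16a3 window held ACGTG 2 times and no CACGTG, and the Ldha window held CACGTG 2 times and a further CACGT, which is ACGTG on the other strand. The window of the other Ldha start held neither motif. Of 53 windows of 37 member genes, which include Aldoc and lack Slc2a3, 19 held ACGTG (35.8%) and 7 held CACGTG (13.2%), beside 16.6% and 6.02% of all 32851 windows of the same length. A match of letters says nothing of binding, and no match was set against the levels.

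In gluconeogenesis a single gene stood out. Fbp2, the muscle isoform of fructose-1,6-bisphosphatase, had levels of -5.26, -4.66, -1.74 and -0.33 on B16, B16-RI, B16-RII and B16-RIIL, with S/N of -3.16, 0.22, 15.6 and 30.2. It was detected on both lines of the second round and on neither earlier line, and the B16 spot also carried a flag above the limit. By ratio to the undetected B16 signal it was 11.5-fold higher in B16-RII and 30.6-fold higher in B16-RIIL. By ratio to the B16-RI spot, whose flag was within the limit, it was 7.56-fold and 20.2-fold higher. None of these ratios is a lower bound, since both reference signals were below the detection limit. The difference from the background signal on B16 was no smaller under the other scalings, with at least 3.74 log2 units in B16-RII and at least 5.25 in B16-RIIL. By the measured difference from B16, Fbp2 ranked 18 of 8803 genes detected on B16-RII and 9 of 8840 detected on B16-RIIL, an order that rests on signals at background on B16. The liver isoform Fbp1, the next protein-coding gene along chromosome 13 in RefSeq, was not detected on any array, with S/N of at most 1.66. The promoters of the pair are shown because these neighbouring isoforms gave different readings, on GRCm38.p6 at chr13:62858401-62858650 (- strand) for Fbp2 and chr13:62888283-62888532 (- strand) for Fbp1, 250 bases before the start and with CACGTG in capitals.
Fbp2: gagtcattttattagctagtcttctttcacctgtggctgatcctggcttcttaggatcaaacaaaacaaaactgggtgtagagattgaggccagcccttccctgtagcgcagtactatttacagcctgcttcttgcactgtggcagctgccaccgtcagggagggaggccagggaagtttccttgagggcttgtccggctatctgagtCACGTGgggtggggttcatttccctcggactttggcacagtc
Fbp1: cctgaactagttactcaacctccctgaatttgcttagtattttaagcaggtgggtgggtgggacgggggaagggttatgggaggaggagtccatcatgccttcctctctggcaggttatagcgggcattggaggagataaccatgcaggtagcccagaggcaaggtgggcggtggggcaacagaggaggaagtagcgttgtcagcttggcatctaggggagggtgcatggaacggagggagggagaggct
Fbp2 held CACGTG once, its first base 42 bases before the start, and Fbp1 held neither CACGTG nor ACGTG. Fbp2 is a gene of muscle, so the 6 muscle markers were set beside it. Ckm, muscle creatine kinase, was detected on all arrays with levels of -2.70, -1.74, -0.54 and -0.76, which is 0.96, 2.16 and 1.94 above B16. Its S/N on B16 was 3.38, close to the limit of detection. In B16-RI its difference lay between 1.20 and 1.35 under the other scalings, past the 2-fold limit. Acta1 and Tnnt3, genes of the muscle filaments, were detected on no array, Tnni2 and Myog on B16-RI alone, and Myl1 on B16-RIIL alone, by 1 of its 2 probes with an S/N of 4.93. By any probe 1, 3, 1 and 2 of the 6 markers were thus detected on B16, B16-RI, B16-RII and B16-RIIL. The part of muscle RNA in the Fbp2 signal was not tested beyond these values.

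Among the other enzymes of gluconeogenesis, Pck2, the mitochondrial phosphoenolpyruvate carboxykinase, had levels of 1.90, 0.76, 1.18 and 1.74. It was lowest in B16-RI, 2.20-fold below B16, but the difference of -1.14 was -0.74 with the deposited values and -0.89 with 75th percentile scaling, short of the limit. The cytosolic enzyme Pck1 had levels of 0.88, 1.06, 1.00 and 0.67. Pcx, pyruvate carboxylase, had levels of -2.82, -2.95, -2.20 and -2.04, with both lines of the second round higher by 0.62 and 0.77, of which the first was 1.05 with the deposited values, past the limit. G6pc, the glucose-6-phosphatase of liver, was not detected on any array.

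The subunits of pyruvate dehydrogenase stayed within 2-fold of B16. Pdha1, Pdhb and Dlat, which encode subunits of the complex, had differences from B16 between -0.37 and 0.14 at the brightest probe of each, and Pdha1 reached 0.58 in B16-RIIL with the deposited values. The second Pdhb probe, also detected on all arrays, differed by 0.03, -0.43 and -0.57, and in B16-RIIL stayed below B16 under each scaling. Pdk1, a kinase that turns the complex off, had levels of 1.90, 1.00, 1.92 and 0.93 in the same order of lines. The lines thus fell into a higher pair, B16 and B16-RII, and a lower pair, B16-RI and B16-RIIL. The differences of -0.90 in B16-RI and -0.97 in B16-RIIL were just short of the limit and passed it with quantile normalization, at -1.16 and -1.28, and with 75th percentile scaling, at -1.03 and -1.19. Pdk3 ranged from 0.86 to 1.27, and Pdk2 and Pdk4 were not detected.

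Between passaged lines the calls are given for each comparison beside the share of all genes, and further members passed the limit under other scalings. Against B16-RI, B16-RII was above for Fbp2 and Slc16a3, 2 of 37 members beside 3.16% of all genes, and below for Slc2a3, beside 3.32%. Slc16a3 was 2.66-fold and Slc2a3 3.11-fold apart, each by ratio to an undetected signal. Fbp2 ranked 9 of 8803 genes by the measured difference, over a signal at background on B16-RI. With the deposited values Pfkl, Pcx and Pdk1 were above as well, at 1.20, 1.18 and 1.35. Against B16-RI, B16-RIIL was above for Fbp2, beside 4.79%, and below for Slc2a3, Pfkp and Tpi1, beside 3.66%. Slc2a3, not detected on B16-RIIL, had a signal 2.21-fold lower there, and the differences of Pfkp and Tpi1 were -1.29 and -1.12. The Tpi1 difference was -0.99 with the deposited values, short of the limit, and -0.05 at its second probe. Pck2, at 0.98, was just short of the limit and passed it under the other 3 scalings. Slc16a3, not detected on B16-RI, was 1.92-fold above its signal there, short of the limit of 2-fold, and its measured difference passed under the other 3 scalings. By the measured difference Fbp2 ranked 2 of 8840 genes, again over a signal at background on B16-RI. The lung line against the lymph node line of the same round was above for Fbp2 alone, by 1.42, beside 4.03% of all genes. There Fbp2 was detected on both arrays and ranked 411 of 8840 genes. No member was below, where 3% of all genes were, but Pdk1 was just short of the limit and passed it under the other 3 scalings, at -1.41, -1.04 and -1.12, and Pkm2 passed it with the deposited values, at -1.26.

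Counted without a size limit, more members were lower than higher once each probe set was centred, while with the deposited values more were higher. Of the 27 detected on all arrays, 19 were lower than B16 in B16-RI, 19 in B16-RII and 21 in B16-RIIL, by any amount, while 45.7%, 47.1% and 50.2% of the 7419 genes detected on all arrays were lower. With the deposited values 11, 6 and 10 of the 27 were lower, beside 27.9%, 12.9% and 29.0% of all genes. The median member difference was -0.19, -0.12 and -0.25, beside 0.03, 0.02 and 0.00 over all genes. With the deposited values the medians of the members were above 0, at 0.06, 0.31 and 0.13, and those of all genes were higher still, at 0.22, 0.45 and 0.26. The members lay below all genes by 0.13 to 0.25 in the 3 lines under each of 4 scalings. In B16-RII the median over members of the second probe set alone was 0.026, and over those of the first -0.22. Single members were less settled, since 11, 18 and 13 of the 27 changed sign in B16-RI, B16-RII and B16-RIIL with the scaling. Aldoa, Tpi1 at its brighter probe and Pklr were lower than B16 under each scaling in each line.

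**Figure D3:**
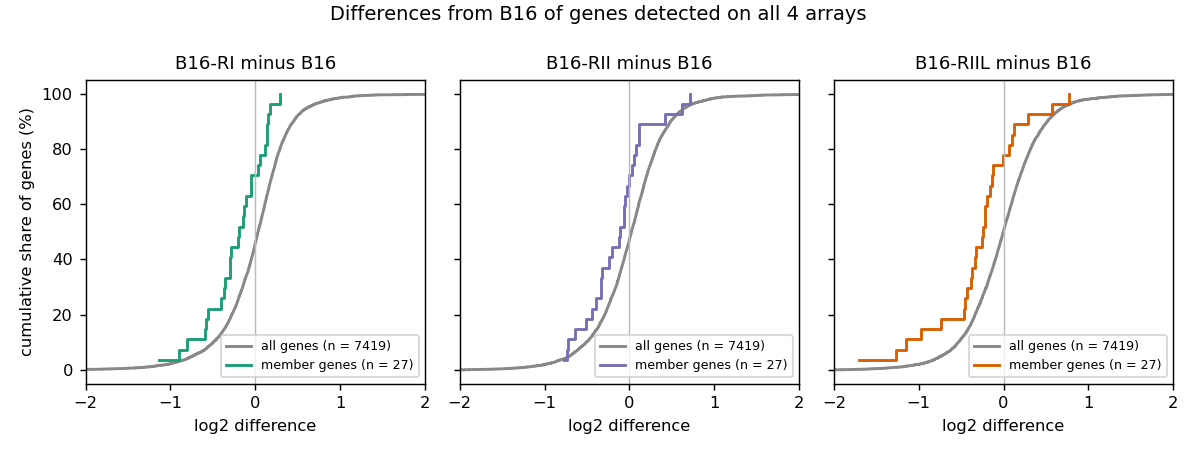
Cumulative share of genes (y axis, %) against log2 difference from B16 (x axis) for the 27 member genes and the 7419 genes of the array detected on all 4 arrays, 1 panel per passaged line. The member curve lies to the left of the grey curve over most of each panel, with medians of -0.19, -0.12 and -0.25.

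Bright probes could differ from dim ones, so the genes were also grouped by mean level. Of the 5 members with a mean level of at least 4, 3, 3 and 4 were lower than B16, beside 28.8%, 46.8% and 63.0% of the 378 genes of that range. Their medians were -0.19, -0.01 and -0.19, beside 0.11, 0.01 and -0.08 over those genes. The 4 members with a mean level between 2 and 4 had medians of -0.44, -0.29 and -0.29, beside 0.11, 0.10 and 0.01 over 1226 genes. With a mean level between 0 and 2 the medians of 8 members were -0.17, -0.09 and -0.19, beside 0.06, 0.08 and 0.03, and between -2 and 0 those of another 8 were -0.08, -0.33 and -0.31, beside -0.03, -0.02 and 0.00. In the lowest range the 2 members had medians of -0.14, 0.11 and 0.17, beside -0.13, -0.26 and -0.16, so there they lay above all genes in B16-RII and B16-RIIL. Spread over the lines was like that of other genes. Of the 27 members 51.9% had levels that spanned under 0.5 log2 units, beside 53.8% of all genes, and 14.8% spanned at least 1, beside 9.99%.

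**Figure D4:**
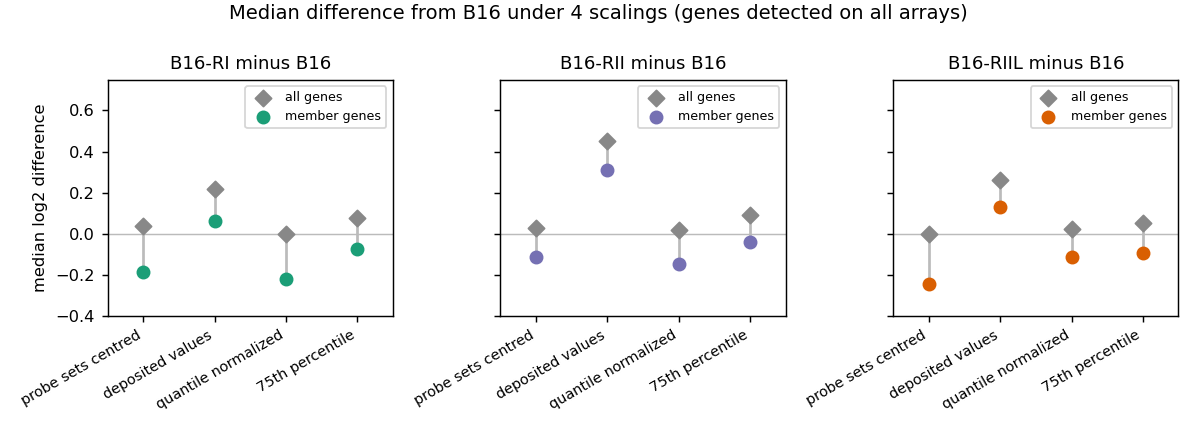
Median log2 difference from B16 (y axis) of 27 member genes (circles) and 7419 genes (diamonds) detected on all arrays, under 4 scalings of the signals (x axis). The circles lie below the diamonds in each panel and move together with them.

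Genes next to the pathway were taken from a list of 47, of which 41 had a probe and 27 were detected on all arrays. In each passaged line 2 of the 41 were above B16, which is 4.88%, and 4, 4 and 6 were below in B16-RI, B16-RII and B16-RIIL, which is 9.76%, 9.76% and 14.6%. Among all genes 3.64%, 3.53% and 4.25% were above and 5.1%, 5.03% and 4.57% below. Slc2a4, the insulin-responsive glucose carrier of muscle and fat, had levels of -3.05, -0.82, -0.98 and -1.57. It was detected on all arrays and lay above B16 by 2.22, 2.06 and 1.47. Pygl, the liver glycogen phosphorylase, had levels of -4.18, -3.08, -1.86 and -2.55, with S/N of 1.41, 4.34, 11.27 and 3.05. It was not detected on B16, and on B16-RIIL it was detected just above the limit. By ratio to the B16 signal the passaged lines lay higher by factors of 2.14, 5.0 and 3.11. With 75th percentile scaling the difference of Pygl in B16-RI was 0.96, short of the limit. Pfkfb4, which sets the level of the activator of phosphofructokinase, had levels of -3.04, -5.25, -3.24 and -4.46. Pfkfb4 was detected on B16 and B16-RII alone, and its signal was 4.62-fold lower in B16-RI and 2.67-fold lower in B16-RIIL, the latter short of the limit with the deposited values, at -0.90, and with quantile normalization, at -0.89. Gpd1, which links glycolysis to glycerol phosphate, had levels of 1.07, 0.42, 0.82 and -0.30 and was lowest in B16-RIIL, with a difference of -1.37 from B16 that was -0.85 with the deposited values. Slc16a8, a lactate carrier of the retinal pigment epithelium, was detected on B16 alone with an S/N of 8.62, and the passaged lines lay 3.44-fold, 7.57-fold and 2.54-fold below it. Ldhc, the lactate dehydrogenase of the testis, was detected on B16 alone as well and its signal was lower by factors of 2.89, 2.69 and 2.33, with its difference short of the limit under the other 3 scalings in B16-RIIL and, with quantile normalization, at -0.90 in B16-RII. Bpgm, which makes bisphosphoglycerate, differed by -1.13 in B16-RII, which was -0.70 with the deposited values. It was not detected on B16-RI and B16-RIIL, where its signal was 2.05-fold and 2.74-fold below B16. In the pentose phosphate path, which makes NADPH and ribose, G6pdx was above B16 by 0.47, 0.53 and 0.65 and Pgd by 0.26, 0.52 and 0.38, both short of the limit and with the sign of Pgd in B16-RI turned by quantile normalization, while Rpia differed by -0.42, -0.51 and -0.69. Pgls differed by 0.10, 0.27 and 0.73, and in B16-RIIL passed the limit under the other scalings, at 1.25, 1.02 and 1.07. Rpe differed by -0.02, -0.21 and -0.19 and Tkt by -0.12, 0.08 and 0.04, while Taldo1 was not detected.

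**Figure D5:**
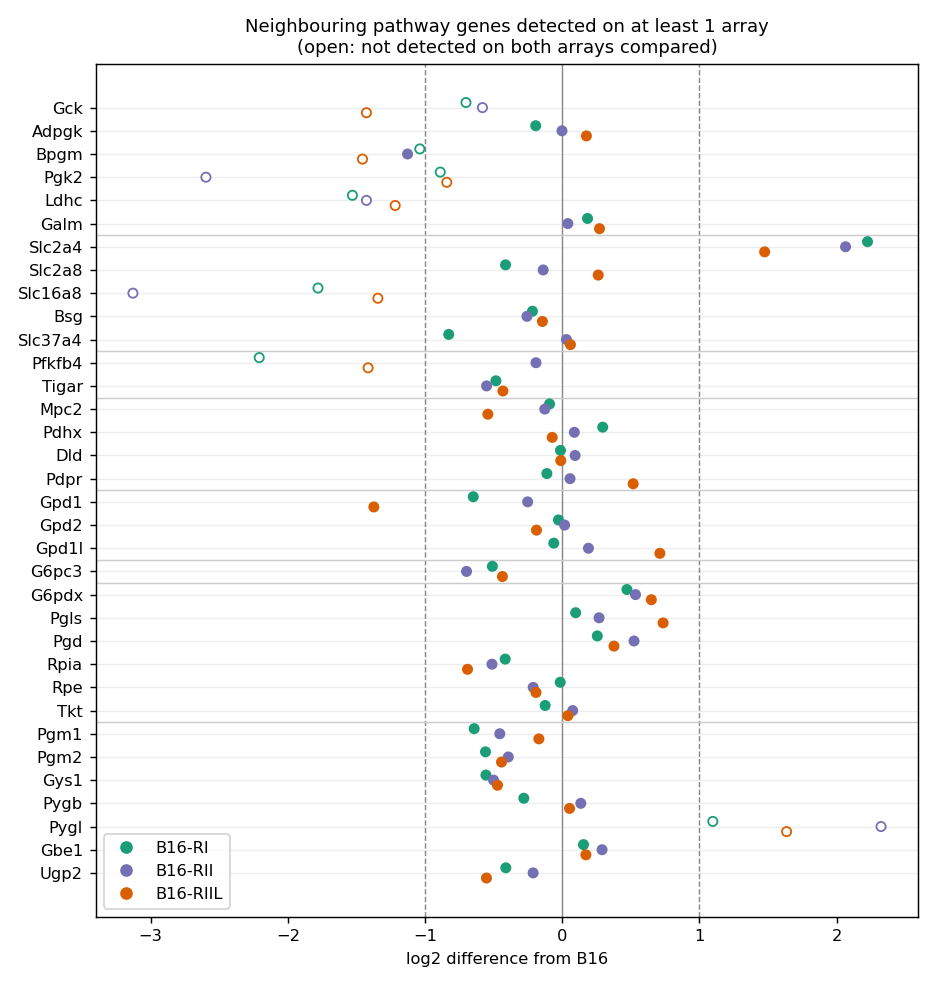
Log2 difference from B16 (x axis) in the 3 passaged lines (colours) for the neighbouring pathway genes (rows) detected on at least 1 array, open where the probe was not detected on both arrays compared, with dashed lines at 1 log2 unit. Slc2a4 and Pygl lie to the right of the limit in all 3 lines, and most genes lie between the dashed lines.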

How the data were processed

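RNA of 4 cultured lines was hybridized as digoxigenin-labelled cRNA to mouse arrays of Applied Biosystems and read by chemiluminescence. The labels describe 1 sample per line, although the study speaks of duplicates. Of the table of all arrays, 16 columns were used. Left out were 30 columns of second arrays, for which no sample label exists here, and 14 columns of log2 values and ratios. The authors deposited a raw and a normalized intensity for each probe. The normalized intensity was the raw intensity divided by 1 of 2 constants per array, for sets of 16524 and 16488 probes, and was not quantile normalized, the method the study names. Deposited beside them were 2 scores of the analyzer, a signal-to-noise ratio and a flag. The limits of 3 and 5000 on them follow the study's methods.

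Levels were log2 of the normalized intensity, with no pseudocount, minus the median over probes of the same set detected on all 4 arrays. A gene was represented by its brightest probe. Its call required 1 log2 unit, 2-fold. Members, pathway list and markers were chosen with earlier results of these data known. Values on every array are given for members called in any passaged line and for a set chosen by role (Slc2a1, Hk2, Pfkp, Aldoa, Gapd, Pgk1, Pkm2, Ldha, Ldhb, Slc16a3, Pdk1, Fbp2 and Pck2), and for some others chosen after their values were seen. The comparison of B16-RIIL with B16-RI was added after the data were seen. Alternatives were other scalings, detection filters, size limits and probe rules. With 1 array per line no test was run and precision is limited by that number. Symbols were updated through the RefSeq gene table of GRCm38.p6, which matched 16303 of 17302 probes with a symbol. Promoter windows were taken from RefSeq on the same build. No protein sequences were used here, so identity between isoforms was not computed. The calling rule was run on simulated data in which changes larger than the limit were placed only on probes detected on all arrays. That run therefore does not bear on calls where an array did not detect the probe. Python 3.11.15, numpy 2.4.6, pandas 2.3.3 and matplotlib 3.10.9 were used.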

Additional observations from a re-analysis of the deposited data

How the results depend on the processing

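Of 93 alternative values for counts and medians of the member genes, 59 stayed close to the reported value, within 1.5 times for a count or 0.1 log2 units for a median, and 34 moved. The medians of all 3 lines turned from negative to positive with the deposited values. Where the construction of an alternative does not give the cause, the cause was not tested.

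With the deposited values the medians of the members were 0.060, 0.31 and 0.13 in B16-RI, B16-RII and B16-RIIL, and 3 and 2 of 37 members were above B16 in B16-RII and B16-RIIL, beside 7.37% and 7.13% of all genes. With quantile normalization 5 members were below B16 in B16-RI, beside 4.89% of all genes, and the median in B16-RIIL was -0.11. With 75th percentile scaling the medians were -0.075 in B16-RI and -0.095 in B16-RIIL. Without a filter on detection 5 members were below B16 in B16-RII, beside 13.7%, and the median there was -0.25 over 37 genes, beside -0.12 over all genes. With an S/N of at least 5, 1, 0 and 3 members were below B16 in the 3 lines, beside 2.68%, 2.36% and 2.25%. With detection on all 4 arrays, 0 members were above in each line, beside 0.724%, 0.775% and 0.973% of all genes, since Slc2a3 and Fbp2 drop out by construction, and 1, 0 and 3 were below, beside 1.09%, 0.954% and 0.993%. At 1.5-fold, 6 were below in B16-RI and 6 in B16-RII, beside 8.81% and 8.79%, and 3 and 2 were above in B16-RII and B16-RIIL, beside 7.19% and 8.29%. With the mean of the detected probes of a gene, 2 were below in B16-RII, beside 7.84% of 10405 genes with a detected probe. Chosen after seeing the data, each probe set alone gave a median in B16-RII of -0.22 and 0.026. Between passaged lines, also chosen after seeing the data, 5 members were above in B16-RII against B16-RI with the deposited values, beside 4.94%. In B16-RIIL against B16-RI 3 were above with the deposited values, quantile normalization and 75th percentile scaling, beside 5.2%, 5.3% and 4.76%. In B16-RIIL against B16-RII 2, 1 and 1 were below in the same order, beside 4.57%, 3.16% and 3.16%.

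For single probes, 150 of 189 values moved with the scaling by over 0.1 log2 units, and none of the called differences reversed. Signal over background limits the results for Slc2a3, Pgam2, Slc16a3, Eno2 and Fbp2, which were not detected on at least 1 array. No paired analysis was possible because nothing in the labels pairs the lines. No replicate was left out, since a single array per line has a sample label and the second arrays of the duplicates were not used.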
